A study of Mus musculus with 8 samples.

Results

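The miR-181 family was followed with the 2 assays that a TaqMan microRNA card holds for it, mmu-miR-181a and mmu-miR-181c, out of 375 miRNA assays on the card. They were picked by name and are the only assays of the family on the card. The family was chosen by its Ct difference between the groups on these same cards, which was known beforehand, so for both members that difference is described and not tested. RNA came from the ventral part of the lumbar spinal cord, with 1 card per sample. The control group held 4 wild type samples of strain FVB. The test group held 4 samples of MLC/SOD1[G93A] mice on the FVB background, which carry the mutant gene of superoxide dismutase 1 under the Myosin Light Chain (MLC) promoter. The promoter is specific to muscle, so the spinal cord is a tissue where the transgene is not meant to be expressed. All mice were 4 months old, and the labels name no treatment. Wild type samples carry the numbers 1 to 4, whereas the columns of MLC/SOD1[G93A] samples carry the numbers 5a to 8a.

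miR-181 miRNAs guide the silencing machinery to messenger RNAs that pair with their seed, the bases near the 5′ end that do most of the target recognition. The family is best known from lymphocytes, where miR-181a sets how strongly T cells respond to their antigen. Members are also expressed in neurons and astrocytes, where miR-181a has been tied to glutamate receptor levels and to survival after injury. In mice, miR-181a is made from 2 genes that each lie beside a miR-181b gene, and miR-181c is made from a gene beside that of miR-181d.

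The mature sequences are shown because the card measures both members with separate assays although they are nearly the same RNA. They were taken from RefSeq (mouse build GRCm38.p6), with the seed, bases 2 to 8, in capitals and the rest in lower case.
mmu-miR-181a-5p: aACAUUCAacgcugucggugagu
mmu-miR-181c-5p: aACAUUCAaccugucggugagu
mmu-miR-181b-5p: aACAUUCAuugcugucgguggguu
mmu-miR-181d-5p: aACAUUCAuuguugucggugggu
The card tables give no arm and no assay sequence, and the older names miR-181a and miR-181c were read as the 5p arms. All 4 RNAs share the seed ACAUUCA, and no other mature mouse miRNA in the RefSeq table has it. The 5p forms of miR-181a and miR-181c have 23 and 22 bases and differ by 1 edit. Their first 10 bases and their last 12 bases are identical. miR-181b and miR-181d, which are not analysed here, differ from miR-181a by 4 edits each. TaqMan assays prime reverse transcription at the 3′ end of the miRNA, and whether either assay also detects the other member was not tested.

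The mature sequence of miR-181a lies at chr1:137966468-137966490 (Mir181a-1) and at chr2:38852741-38852763 (Mir181a-2), both on the plus strand. On chromosome 1 it is followed by miR-181b after 159 bases, and on chromosome 2 after 1081 bases. The assay cannot tell the products of both miR-181a genes apart, as their mature RNA is the same. miR-181c lies at chr8:84178924-84178945 on the minus strand, 142 bases from miR-181d.

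The readout of an assay was its threshold cycle (Ct), the number of PCR cycles needed to reach a set signal. A Ct lower by 1 cycle means roughly a doubling of the RNA. Of the 375 miRNAs, 239 to 256 per wild type sample and 240 to 249 per MLC/SOD1[G93A] sample had a Ct of 35 or less, and higher values were taken as missing. Both members were measured in all 8 samples, with a highest Ct of 32.01. 190 miRNAs were measured in every sample, and 227 had at most 1 missing value per group. The 4 wells of the small nuclear RNA U6, a common reference, spanned 2.14 cycles in sample 7a and 1.97 cycles in 8a, against 0.39 to 1.05 cycles in the other samples. Sample 8a also had a Ct of 18.40 for the control RNA U87, where the others of its group lay between 28.50 and 29.16.

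mmu-miR-181a was the more abundant signal. Its Ct was 28.04, 27.28, 27.00 and 26.97 in wild type 1 to 4, and 27.78, 27.28, 27.72 and 27.56 in samples 5a to 8a. The MLC/SOD1[G93A] values all lay inside the wild type range. The mean was 27.32 ± 0.50 (SD, n = 4) cycles in wild type and 27.59 ± 0.22 (SD, n = 4) cycles in MLC/SOD1[G93A] samples. Ordered by Ct within each sample, miR-181a stood at place 57 to 73 among the measured miRNAs.

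mmu-miR-181c crossed the threshold later. Its Ct was 31.26, 29.81, 29.98 and 30.27 in wild type 1 to 4, and 32.01, 31.36, 30.96 and 30.90 in samples 5a to 8a. Samples 5a and 6a lay above every wild type sample, while wild type 1 lay above 7a and 8a. The mean was 30.33 ± 0.65 (SD, n = 4) cycles in wild type and 31.31 ± 0.51 (SD, n = 4) cycles in MLC/SOD1[G93A] samples, and its place by Ct ran from 133 to 186. Amplification can differ between assays, so these places order signals and not molecules.

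**Figure D1:**
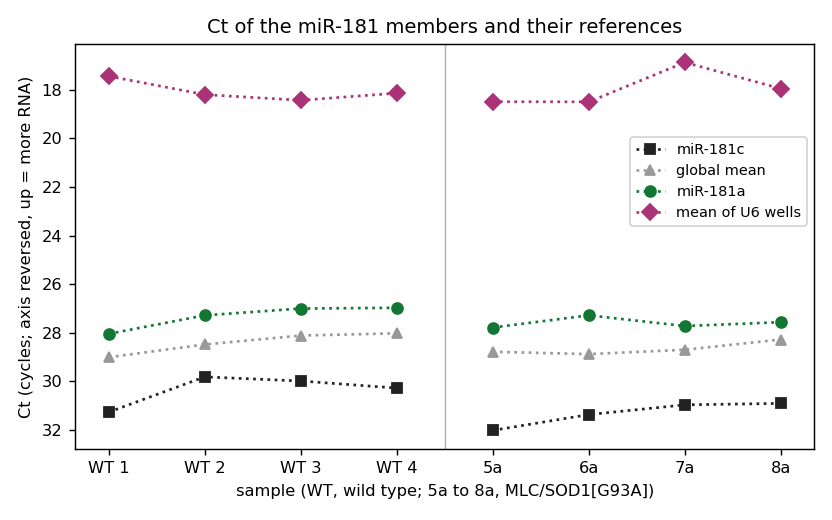
Ct in cycles (y axis, reversed so that more RNA is higher) of both miR-181 assays, of the mean of the 4 U6 wells and of the global mean, in each of the 8 samples (x axis); dotted lines only guide the eye. miR-181a runs beside the global mean, miR-181c drops farthest in 5a at 32.01 cycles, and U6 is most abundant in 7a at 16.88 cycles.

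The methods of the study name both U6 and the global mean as reference. With U6, both members had lower means in MLC/SOD1[G93A] samples, and both overlapped between the groups. The difference of miR-181a was smaller than the SD between samples, and that of miR-181c was slightly larger. This log2 expression is the mean U6 Ct of a sample minus the Ct of the miRNA, so a higher value means more RNA. For mmu-miR-181a it was -10.59, -9.08, -8.56 and -8.83 in wild type 1 to 4 and -9.28, -8.78, -10.84 and -9.60 in samples 5a to 8a. The groups overlapped over most of their range, with means of -9.26 ± 0.91 (SD, n = 4) and -9.63 ± 0.88 (SD, n = 4). The log2 difference, MLC/SOD1[G93A] minus wild type, was -0.36 with a standard error of 0.64, and it ran from -0.80 without wild type 1 to 0.04 without sample 7a.

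For mmu-miR-181c, log2 expression relative to U6 was -13.81, -11.61, -11.54 and -12.13 in wild type 1 to 4. In samples 5a to 8a it was -13.51, -12.86, -14.08 and -12.94. All MLC/SOD1[G93A] samples lay below wild type 2, 3 and 4, and wild type 1 lay among them. The means were -12.27 ± 1.06 (SD, n = 4) and -13.35 ± 0.57 (SD, n = 4), a difference of -1.08 with a standard error of 0.63. Both members were lowest in wild type 1 within their group and in 7a within theirs, the samples with the lowest mean U6 Ct of each group (17.45 and 16.88 cycles). Wild type 1 also had the highest raw Ct of its group for both members (28.04 and 31.26 cycles). Sample 7a did not (27.72 and 30.96 cycles).

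With the global mean, the average Ct over the 190 miRNAs seen in every sample, the members parted. mmu-miR-181a was level between the groups. Its log2 expression was 0.96, 1.20, 1.11 and 1.05 in wild type 1 to 4 and 1.0, 1.59, 0.97 and 0.71 in samples 5a to 8a. Sample 6a was the highest of all and 8a the lowest, so the MLC/SOD1[G93A] values enclosed those of wild type. The means were 1.08 ± 0.10 (SD, n = 4) and 1.07 ± 0.37 (SD, n = 4), and the difference was -0.01 with a standard error of 0.24.

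mmu-miR-181c had a log2 expression relative to the global mean of -2.26, -1.33, -1.87 and -2.25 in wild type 1 to 4. In samples 5a to 8a it was -3.23, -2.49, -2.27 and -2.63. Every MLC/SOD1[G93A] sample lay below every wild type sample, with sample 7a only 0.0085 below wild type 1. The means were -1.93 ± 0.44 (SD, n = 4) and -2.65 ± 0.41 (SD, n = 4), a difference of -0.73 with a standard error of 0.30, or 0.605 of the wild type level on a linear scale. With the median Ct of the same 190 miRNAs in place of their mean, the difference was -0.73 and the groups overlapped. In tissue RNA, fewer cells that hold a miRNA and less of it per cell cannot be told apart.

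**Figure D2:**
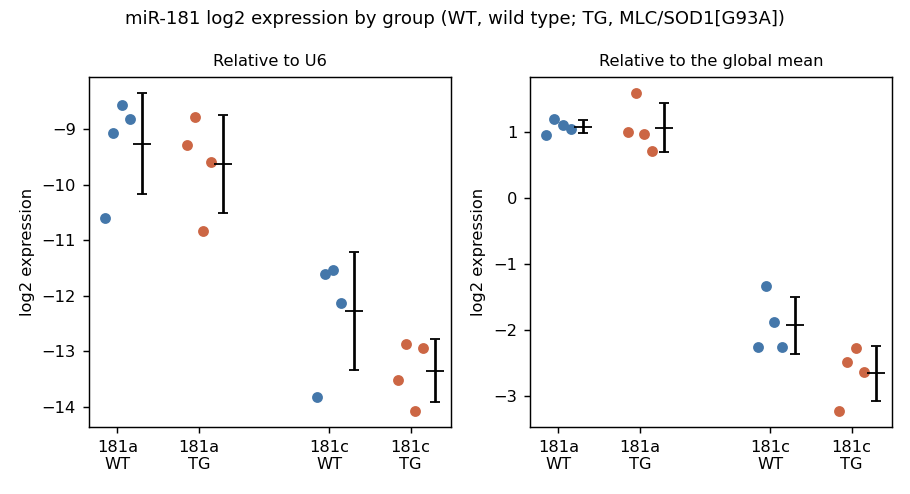
Log2 expression (y axis) of miR-181a and miR-181c relative to U6 (left) and to the global mean (right); points are samples, and the black marks give the mean ± SD of 4 wild type (WT) and 4 MLC/SOD1[G93A] (TG) samples. Relative to the global mean, miR-181a has means of 1.08 and 1.07, and miR-181c of -1.93 and -2.65.

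The distance between the members needs no reference, since both were read on the same card. The Ct of mmu-miR-181c minus that of mmu-miR-181a was 3.22, 2.53, 2.98 and 3.30 cycles in wild type 1 to 4. It was 4.23, 4.08, 3.24 and 3.34 cycles in samples 5a to 8a. Samples 5a and 6a stood apart at over 4 cycles, whereas 7a lay within the wild type range and 8a just above it. The mean gap was 3.01 ± 0.35 (SD, n = 4) cycles in wild type and 3.72 ± 0.50 (SD, n = 4) cycles in MLC/SOD1[G93A] samples. It was wider by 0.715 cycles in the latter, with a standard error of 0.306, and by 0.546 to 0.876 cycles when each sample was left out in turn. Over all 8 samples the gap was 3.37 ± 0.55 (SD, n = 8) cycles.

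**Figure D3:**
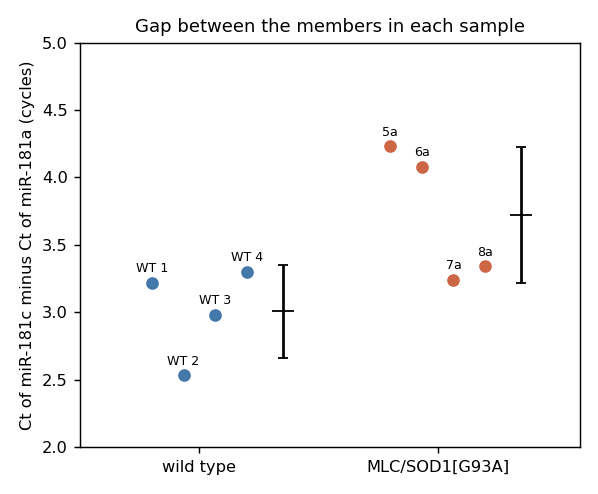
Ct of miR-181c minus Ct of miR-181a in cycles (y axis) in each wild type and MLC/SOD1[G93A] sample, with the mean ± SD of each group (black). The gap is 4.23 and 4.08 cycles in 5a and 6a and lies between 2.53 and 3.34 cycles in the other 6 samples.

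A reference shifts all miRNAs of a sample alike, so another reference moves both members and the rest of the card together. Set against the median of the 227 miRNAs, the difference stayed between -0.06 and -0.03 for miR-181a and between -0.77 and -0.74 for miR-181c under 14 choices of reference, with raw Ct counted as a choice. The size of either difference therefore moves with the shift of the whole card, and its sign is given as a description. The difference of miR-181a was negative with 10 and positive with 4. The positive ones were 0.58 with the control RNA Y1, 0.29 with U6 well 4 alone, 0.13 with snoRNA135, and 0.105 with Y1, snoRNA135 and snoRNA202 averaged. That of miR-181c was negative with all 14, from -3.35 with U87 to -0.14 with Y1. The value with U87 carries the early U87 reading of sample 8a.

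The miR-181c groups did not overlap with 5 of the 14 references, and miR-181a overlapped with all 14. With snoRNA202, miR-181c lay between -7.73 and -7.08 in wild type and between -9.39 and -8.18 in MLC/SOD1[G93A] samples. That reference separated many miRNAs. For 14 of 227 (6.17%), every measured MLC/SOD1[G93A] value lay below every measured wild type value, with missing values left out. The same count was 11 (4.85%) with U87, 9 (3.96%) with the average of U87, Y1, snoRNA135 and snoRNA202, and 1 (0.441%), miR-181c itself, with that average without U87. The early U87 reading of sample 8a enters both references that hold U87. With the averages the miR-181c groups were apart by a narrow margin, 0.0975 with U87 included and 0.0767 without it. The global mean, whose count is given with those of the whole card, was the remaining reference.

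**Figure D4:**
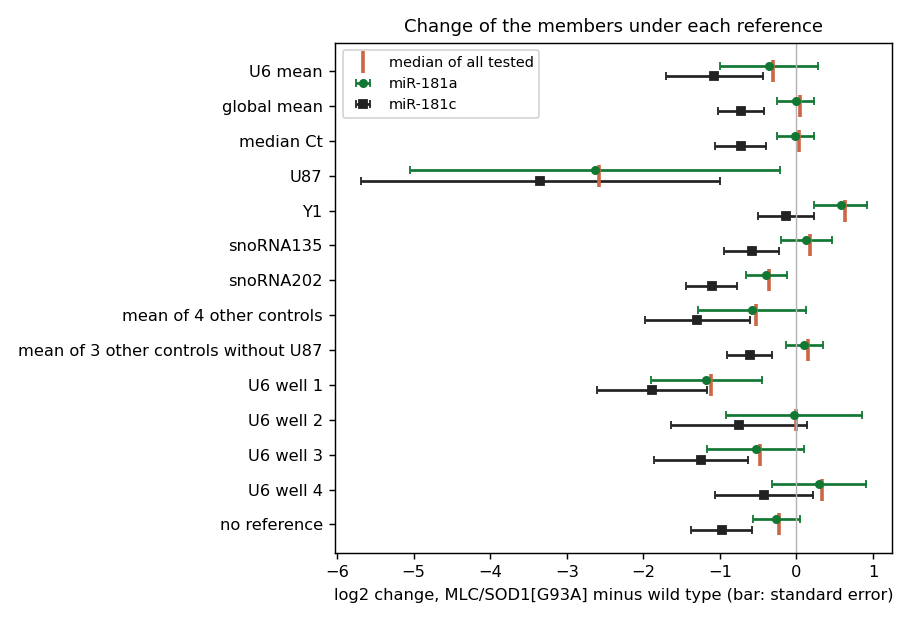
Log2 difference, MLC/SOD1[G93A] minus wild type (x axis), of miR-181a and miR-181c under each of 14 references (y axis), with bars for the standard error and a vertical tick for the median of all 227 tested miRNAs. miR-181a stays beside the median while miR-181c lies below it, from -3.35 with U87 to -0.14 with Y1.

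Set against the whole card, miR-181a was close to the middle and miR-181c near the lower end. Relative to U6, the median difference over the 227 miRNAs was -0.31, and 176 were negative. miR-181c stood at place 17 from the most negative and miR-181a at place 103. With the global mean the median was 0.04 with 105 negative, and the places were 15 and 102. Within groups, the SD of miR-181a relative to the global mean was 0.27, the place 36 from the smallest, against a median of 0.45 over all. That of miR-181c was 0.43.

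In limma with Benjamini-Hochberg adjustment, 0 of the 227 miRNAs (0%) had an adjusted p under 0.05 with U6 as reference, and 0 (0%) with the global mean, so neither member did. Before adjustment, 5 miRNAs (2.2%) had p under 0.05 and a lower level with U6, and 1 had a higher one, with no member among them. With the global mean there were 13 lower (5.73%), miR-181c included, and 8 higher. These unadjusted counts rose when wild type 1 was left out. They were then 34 lower and 2 higher with U6, and 21 lower and 27 higher with the global mean. With U6 well 1 alone as reference, 45 were lower. An exact Mann-Whitney test gave 0 miRNAs with U6 and 6 with the global mean before adjustment, an exact permutation test gave 1 and 9, and both gave 0 after it. Among measured values, the groups were apart with MLC/SOD1[G93A] lower for 3 miRNAs (1.32%) with U6 (miR-130b, miR-369-3p and rno-miR-351). The same held for 5 (2.2%) with the global mean (miR-181c, miR-106a, miR-223, miR-34a and miR-369-3p). In the other direction, 1 miRNA was apart with U6 and 5 with the global mean. Missing values were left out, although they stand for a low or undetected level. miR-130b had no value in wild type 1, and rno-miR-351 had none in wild type 2. Relative to U6 (17.45 cycles), any Ct over the limit in wild type 1 lies below the MLC/SOD1[G93A] mean of miR-130b (-16.14). With the missing values counted as low, the miR-130b groups overlap, and those of rno-miR-351 may. As the members were chosen with this contrast known, nothing is read from their place in these counts.

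**Figure D5:**
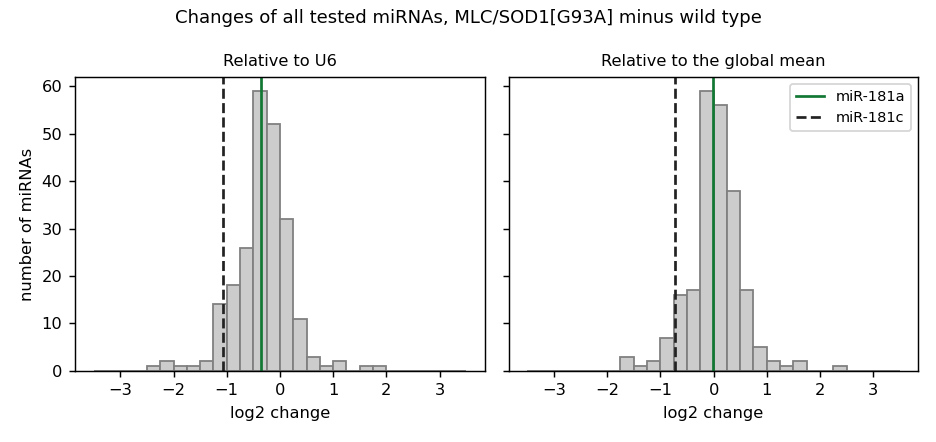
Histogram of the log2 difference, MLC/SOD1[G93A] minus wild type (x axis), over the 227 tested miRNAs (y axis, number of miRNAs), relative to U6 (left) and to the global mean (right); lines mark miR-181a and miR-181c. miR-181a lies near the median of either panel (-0.31 and 0.04), and miR-181c lies to the left at -1.08 and -0.73.

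Likeness between miRNAs was described by the SD of their Ct difference over the 8 samples, which also needs no reference. The closest to mmu-miR-181a among the other 189 miRNAs were miR-9, a miRNA of the neural lineage (SD 0.16 cycles), miR-543 (0.18) and miR-328 (0.18). The Ct of miR-9 minus that of miR-181a lay between -5.12 and -4.68 cycles in every sample. The other member, miR-181c, came only at place 106 with an SD of 0.55 cycles, near the median of 0.51.

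mmu-miR-181c had no partner that close. The nearest were miR-133b, known from muscle (SD 0.43 cycles), miR-10a, encoded in a Hox cluster (0.43), and miR-26b (0.46), and miR-181a stood at place 24. The median over all was 0.72 cycles. With miR-181a as the fixed partner, 13 of 189 miRNAs (6.88%), miR-181c included, had a gap that was wider in MLC/SOD1[G93A] samples by at least as much as that of miR-181c.

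Markers of cell types that the tissue could hold were taken beside these values. All 7 neuronal miRNAs of the list, among them miR-124 and miR-9, and both oligodendrocyte miRNAs, miR-219 and miR-338-3p, were measured in every sample. Their differences are given here with the global mean as reference. Of the 7 listed neuronal miRNAs 4 had negative differences, the lowest being miR-124 at -0.25 and the highest miR-138 at 0.44, and the median was -0.10. The list holds miR-129-3p, at 0.15. The other arm, miR-129-5p, is outside the list and was at -1.22 with a standard error of 0.40. miR-138 is also known from oligodendrocytes, so its value belongs beside theirs as well. Of the listed oligodendrocyte miRNAs, miR-338-3p was at -0.80 and miR-219 at -0.11.

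Of 7 leukocyte and microglia miRNAs on the card, 6 were tested and 3 had negative differences, with a median of -0.06. The lowest was miR-223, a miRNA of myeloid cells, at -1.45 with a standard error of 0.42, and the highest was miR-150, found in lymphocytes, at 0.20. With U6, where the median of the whole card was -0.31, all 6 were negative with a median of -0.41, and 6 of the 7 neuronal miRNAs were negative with a median of -0.45. Both listed oligodendrocyte miRNAs were negative with U6 too, with a median of -0.81. An assay outside the list, rno-miR-219-2-3p, was positive with both references, at 0.10 with U6 and 0.45 with the global mean. The summed level of the leukocyte and microglia miRNAs, the log2 of the added linear levels relative to the global mean, ran from 5.28 to 6.37 in wild type and from 5.13 to 6.12 in MLC/SOD1[G93A] samples. For oligodendrocytes it ran from 0.53 to 0.97 and from 0.08 to 0.94. The part of these cells in the difference of miR-181c was not tested.

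The remaining lists had medians of -0.51 for red blood cells (miR-451 at -1.12 and miR-486 at 0.09), -0.13 for endothelial and mural cells (from -0.32 for miR-126-5p to 0.0022 for miR-126-3p), and -0.10 for muscle (from -0.15 for miR-1 to -0.0053 for miR-133a). Their summed levels overlapped between the groups, at 2.20 to 3.45 against 1.99 to 3.16 for red blood cells, 6.42 to 7.23 against 6.43 to 6.96 for endothelial and mural cells, and 3.90 to 5.31 against 3.76 to 5.41 for muscle. With U6 the medians were -0.86 for red blood cells, -0.48 for endothelial and mural cells and -0.45 for muscle. A second assay named for miR-1, rno-miR-1, is outside the muscle list. It was at -0.58 with the global mean and -0.93 with U6. In all lists together, 0 miRNAs had an adjusted p under 0.05 in limma with either reference. Before adjustment, miR-338-3p and miR-223 had p under 0.05 with the global mean, miR-223 also with U6, and all of these were lower.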

How the data were processed

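The authors reverse transcribed 600 ng of RNA per sample and ran TaqMan Array Mouse MicroRNA Card A by quantitative PCR. The deposited Ct table is a score in cycles from the instrument software, without normalization. The authors' normalized table is on the log2 scale, Ct minus the mean Ct of the U6 wells, and all 2063 values lay within 0.011 of that rule. The third deposited table holds the authors' ratios between groups and was not used.

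Ct values over 35 and undetermined wells were set to missing, and miRNAs with at least 3 of 4 values in each group were tested. Groups were compared across the card with limma 3.58.1 in R 4.3.3, without covariates, and Benjamini-Hochberg adjustment. The limma p-values set each group difference against the spread between these samples only, within groups and partly shared over the miRNAs tested. Exact tests were run in Python with SciPy 1.17.1. The fits were tested on simulated data. Cards give no read depth, and precision rests on their number. When a sample was left out, at most 1 missing value per group was allowed.

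The members, marker lists and tests were chosen with earlier results of these data known. The text names the members, the control RNAs used as reference, the 3 miRNAs closest to each member by the SD of the Ct difference, and the lowest and highest of each marker list. miR-106a, miR-130b, miR-34a, miR-369-3p, rno-miR-351 and miR-325 were named after their values were seen. As alternatives, the reference, the Ct limit (32 or 40) and the missing value rule were varied, exact tests were run for each miRNA, and samples were left out singly. The older names without an arm were read as 5p arms.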

Additional observations from a re-analysis of the deposited data

Results flagged for a closer look

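For the members and their references, the distance of the highest or lowest of 4 samples to its neighbour was divided by the range of the 4. Of 26 groups of values, 2 had an isolated sample, and chance alone flags about 1 in 20. The Ct of U87 was 18.40 in sample 8a and 28.50 to 29.16 in the other MLC/SOD1[G93A] samples. The Ct of snoRNA135 was 27.19 in sample 7a and 27.76 to 27.86 in the others of its group. No value of miR-181a or miR-181c was far from its group in this way. The plant control miR159a, an assay outside the comparison, was read in sample 7a at a Ct of 29.85, while all wild type samples and the remaining MLC/SOD1[G93A] samples, 7 in all, gave no signal.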

How the results depend on the processing

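Relative to U6, the difference of miR-181a (-0.36) moved by more than the SD between samples with U87 (-2.63) and with Y1 (0.58), and that of miR-181c (-1.08) with U87 (-3.35) and with Y1 (-0.14). With the other alternatives, 22 for either member, it moved by less, although miR-181a turned positive with 4 of these (U6 well 4, snoRNA135, the average of Y1, snoRNA135 and snoRNA202, and without sample 7a). Relative to the global mean, all 12 alternatives of either member stayed within the SD, from -0.18 to 0.08 for miR-181a and from -0.86 to -0.52 for miR-181c. The wider gap between the members (0.715 cycles) stayed between 0.546 and 0.876 cycles under 10 alternatives. A Ct limit of 32 removes miR-181c in sample 5a (32.01). The number of miRNAs with an adjusted p under 0.05 in limma, 0 relative to U6, was 4 with U6 well 1 alone (miR-130b, miR-223, miR-325 and miR-369-3p) and 0 to 1 when samples were left out, the 1 being miR-451 without wild type 1. Relative to the global mean it was 0 in every alternative run. No paired analysis was run, as the labels name no pairing between the groups. The MLC/SOD1[G93A] columns also carry numbers that the sample labels do not use. Precision is limited by the 4 cards per group.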
